A study of Mus musculus with 4 samples.

Results

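Last-exon regions are the stretches of the m6ARIP-seq table of interscapular brown adipose tissue (iBAT) whose center the authors labelled as lying in the last exon of a gene. A region was taken if a gene listed for it had that label and no listed gene had the label of the 3′-UTR. The rule gave 2422 of the 9243 regions, over 2335 gene IDs, of which 1891 have a symbol. A further 85 regions carried both labels and were left out, and 380 of the 2422 regions also lay over a second or further gene.

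The study compared iBAT of BKO mice (*Mettl3* flox/flox UCP1-iCre) with iBAT of *Mettl3* flox/flox mice without the Cre, both on C57BL/6 and 8 weeks old. For each genotype there was 1 IP library, made of poly(A)+ RNA fragments caught with an antibody against m6A, and 1 input library of the fragments before capture. Each RNA sample was pooled from 5 mice, so the animals cannot be told apart and no difference has a replicate check or a p-value. The Cre was inserted at the *Ucp1* locus and is active in brown adipocytes, whereas the tissue also holds endothelial, immune, nerve and stromal cells in which this Cre is not active. In such bulk samples, fewer cells of a type and less RNA per cell cannot be told apart. *Mettl3* itself had no region in the table, so the deleted transcript gives no check of the labels.

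N6-methyladenosine (m6A) is written on nascent mRNA by a complex whose catalytic subunit is METTL3, at adenosines within short motifs such as GGACT. In mammalian mRNA it is concentrated in long internal exons and around the stop codon, which mostly lies in the last exon, so that this exon carries coding sequence, the stop codon and the 3′-UTR side by side. Reader proteins that bind m6A affect the stability, translation and export of the transcript.

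The bases themselves could be read only where a last-exon region ran into a promoter window of RefSeq (GRCm38.p6, 250 bases before to 50 after a gene start), which was so for 80 regions. In the 70 of these with a single strand, the windows covered 8765 bases. GGACT, searched on both strands, occurred 23 times on the strand of the last-exon gene and 12 times on the other strand, or 2.62 and 1.37 times per 1000 bases. Over all 32851 promoter windows it occurred 1.03 times per 1000 bases on either strand, and 26.1% of windows of 300 bases held it on the gene strand. Of the 70 last-exon regions, 19 (27.1%) held it on the gene strand within their covered bases. Of the 23 occurrences, 14 lay within 100 bases of a peak summit, a count for which no background was computed. The windows of 30 bases below are shown because they are the occurrences in last-exon regions of named genes that had at least 20 input reads in each genotype. They run 5′ to 3′ along the + strand, with the motif in capitals.
Pcif1, chr2:164891155-164891184: cacagactgctaGGACTcagcctcagggct
Pcif1, chr2:164891192-164891221: ggggtggcagcaGGACTtgagctgccaggg
Dhrs13, chr11:78037702-78037731: ggaattgggaaaGGACTaagtcagggcagg
Bola2, chr7:126695792-126695821: agcggaaccgcaGGACTggctgccctccag
Atraid, chr5:31054552-31054581: tggttcaggagtGGACTcgtactaatttgt
Lipt2, chr7:100160251-100160280: attgtgccttgtGGACTggttggaactgga
Mpc2, chr1:165461213-165461242: tgagcctttgcgGGACTcggcctctaggtg

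*Pcif1* encodes the cap-specific adenosine methyltransferase, and its 2 motifs lay 1 and 38 bases from a summit. Its region had 322 IP and 103 input reads in BKO iBAT and 879 IP and 114 input reads in flox/flox iBAT, a fold enrichment of 3.04 against 8.13. In *Dhrs13*, where the motif lay 3 bases from a summit, the fold enrichment was 2.11 in BKO and 14.5 in flox/flox iBAT. The fold enrichment is the IP level over the input level, each scaled to the reads of its library (RPM). *Bola2*, which encodes a glutaredoxin partner in iron handling, had 2.18 against 14.4, and *Atraid* 1.15 against 5.42. *Lipt2*, an enzyme of mitochondrial protein lipoylation, had 1.43 against 6.69. The difference was smaller in *Mpc2*, a subunit of the mitochondrial pyruvate carrier, which had 2.06 against 2.69. The motifs of *Atraid*, *Mpc2*, *Bola2* and *Lipt2* lay farther from the nearest summit, at 68, 132, 161 and 205 bases. The *Mpc2* and *Bola2* windows are at the promoters of these genes, whereas the others are at the promoter of another gene. A promoter window lies mostly before the gene start, so the *Mpc2* and *Bola2* motifs can fall outside the annotated transcript. These matches are letters in a covered stretch and no measurement of a modified base.

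Taken as a whole, last-exon regions changed like the rest of the table. A last-exon region held a median of 257.5 IP and 83.5 input reads in BKO iBAT and 172 IP and 28 input reads in flox/flox iBAT. The median fold enrichment was 2.99 (95% interval of the median 2.89 to 3.14) in BKO iBAT and 5.79 (5.43 to 6.26) in flox/flox iBAT, and the log2 ratio of the fold enrichments (BKO over flox/flox) had a median of -1.05 (-1.15 to -0.94), which is also the median of all regions. At least 2-fold lower in BKO iBAT were 1243 regions (51.3%), against 50.8% of all 9243 regions, and at least 2-fold higher were 445 (18.4%), against 18.6% of all. With the median of all regions subtracted, the split was 786 lower and 827 higher. Where each genotype had at least 20 input reads, 52.6% of 1423 last-exon regions were at least 2-fold lower and 14.4% at least 2-fold higher, beside 51.5% and 13.8% of all such regions. At the median, the log2 ratio was -0.29 for IP levels and 0.80 for input levels. A last-exon region whose IP level did not exceed its input level in each genotype is not in the table, and so is not among the 2422.

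A peak was called in BKO iBAT in 1814 last-exon regions (74.9%), against 70.6% of all regions, and in flox/flox iBAT in 1724 (71.2%), against 67.6% of all. In BKO iBAT only it was called in 698 (28.8%, against 32.4% of all), and in flox/flox iBAT only in 608 (25.1%, against 29.4%). Last-exon regions made up 27.8% of the peaks called in BKO iBAT (Wilson interval 26.7 to 28.9%) and 27.6% of those called in flox/flox iBAT (26.5 to 28.7%). The share was 31.6% of the 3527 peaks called in both. Where a shared region listed a pair of summits, these lay a median of 20 bases apart, and 632 of 771 pairs (82.0%) were within 50 bases. The other regions called in both genotypes were not measured in this way. Last-exon regions were 395 bases long at the median, against 342 bases over all regions.

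Among last-exon regions, the change went with the distance to the gene end. This distance could be measured for 1538 regions whose gene has a RefSeq position and strand, as the bases from the center of the region to the annotated 3′ end of the gene. It is no position within the exon, since no exon annotation was used. Distances reached 152417 bases and can cross introns or the ends of other transcripts. Of the 195 regions under 250 bases from that end, 183 (93.8%) were at least 2-fold lower in BKO iBAT and 1 was at least 2-fold higher. Their median fold enrichment was 1.68 in BKO and 13.6 in flox/flox iBAT. From 250 to 500 bases it was 2.18 against 9.88, and from 500 to 1000 bases 3.05 against 5.23. Beyond 1000 bases the medians of the genotypes were close together. They were 3.71 in BKO and 3.64 in flox/flox iBAT from 1000 to 2000 bases, 3.77 and 3.61 from 2000 to 4000 bases, and 3.75 and 3.39 beyond 4000 bases. Towards the gene end the enrichment was thus lower in BKO iBAT and higher in flox/flox iBAT.

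**Figure D1:**
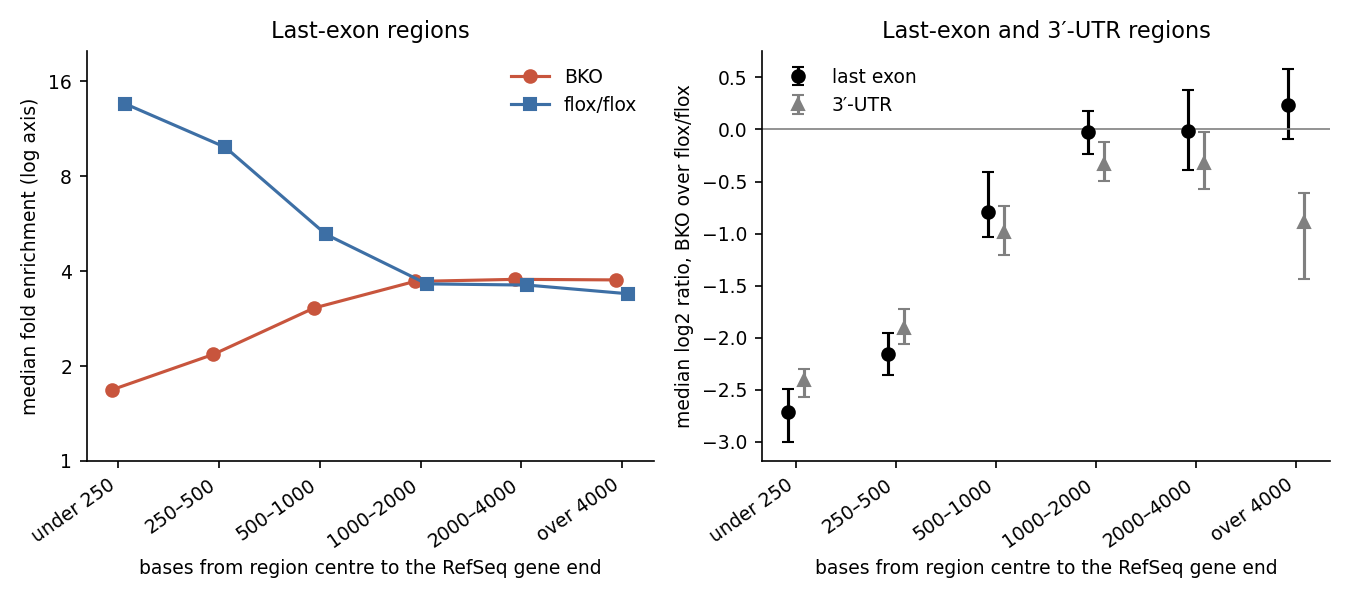
Left, median fold enrichment (log axis) of last-exon regions in BKO and flox/flox iBAT by distance in bases from the region's centre to the RefSeq gene end. Right, median log2 ratio (BKO over flox/flox) with its 95% interval for last-exon regions and 3′-UTR regions at the same distances, which runs from -2.71 and -2.40 under 250 bases to -0.03 and -0.33 at 1000 to 2000 bases.

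On the log2 scale, the median ratio of last-exon regions was -2.71 (-3.00 to -2.49) under 250 bases, -2.16 (-2.35 to -1.96) from 250 to 500 bases and -0.79 (-1.04 to -0.40) from 500 to 1000 bases. It was -0.03 (-0.24 to 0.18) from 1000 to 2000 bases, -0.01 (-0.39 to 0.38) from 2000 to 4000 bases and 0.23 (-0.10 to 0.58) beyond. The input ratio did not follow this course, with medians between 0.54 and 0.94 in these classes, whereas the IP ratio ran from -2.10 to 1.16. With at least 20 input reads in each genotype the medians were -2.49 in the class nearest the end and -0.0022 in the farthest. Flox/flox input reads numbered 36 at the median nearest the end and 17 farthest from it, so distant regions are less well counted.

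Regions labelled 3′-UTR took a similar course up to 1000 bases. Measured in the same way over 2301 regions, they had medians of -2.40 under 250 bases, -1.91 from 250 to 500 bases and -0.99 from 500 to 1000 bases. Their median distance from the end was 801.5 bases, against 1217 bases for last-exon regions. Beyond 4000 bases the 3′-UTR regions had a median of -0.88 (-1.43 to -0.61), below the 0.23 of last-exon regions.

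Called peaks showed the same order. Last-exon peaks called in BKO iBAT only lay a median of 2013.5 bases from the gene end, those called in both genotypes 1001 bases and those called in flox/flox iBAT only 426 bases. In the class nearest the end, 51.3% of regions were called in BKO iBAT and 97.9% in flox/flox iBAT, and beyond 4000 bases 86.3% and 50%. The length of the gene also went with the ratio. In the 308 regions of the shortest genes (694 to 6250 bases) the median log2 ratio was -1.51, and in the 307 regions of the longest it was 0.08.

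The authors' labels for the first and last base of each region gave the same picture without the RefSeq ends. The 374 regions that ran from the last exon or intron past the end of the gene had a median log2 ratio of -2.70 (-2.84 to -2.54), with fold enrichments of 1.84 in BKO and 13.3 in flox/flox iBAT. Of these, 334 (89.3%) were at least 2-fold lower and 3 (0.80%) at least 2-fold higher. The 253 regions from the last intron to the 3′-UTR had -1.87, and the 774 regions from the last exon to the 3′-UTR had -0.55. The 772 regions with both ends in the last exon had -0.24 (-0.48 to -0.03), with fold enrichments of 3.73 against 4.13. Among these, 303 (39.2%) were at least 2-fold lower and 213 (27.6%) at least 2-fold higher. A peak was called in BKO iBAT only in 361 of the 772, against 7 of the 374 that ran past the gene end. How the authors told a last exon from the 3′-UTR within it is not given in the sources used here.

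**Figure D2:**
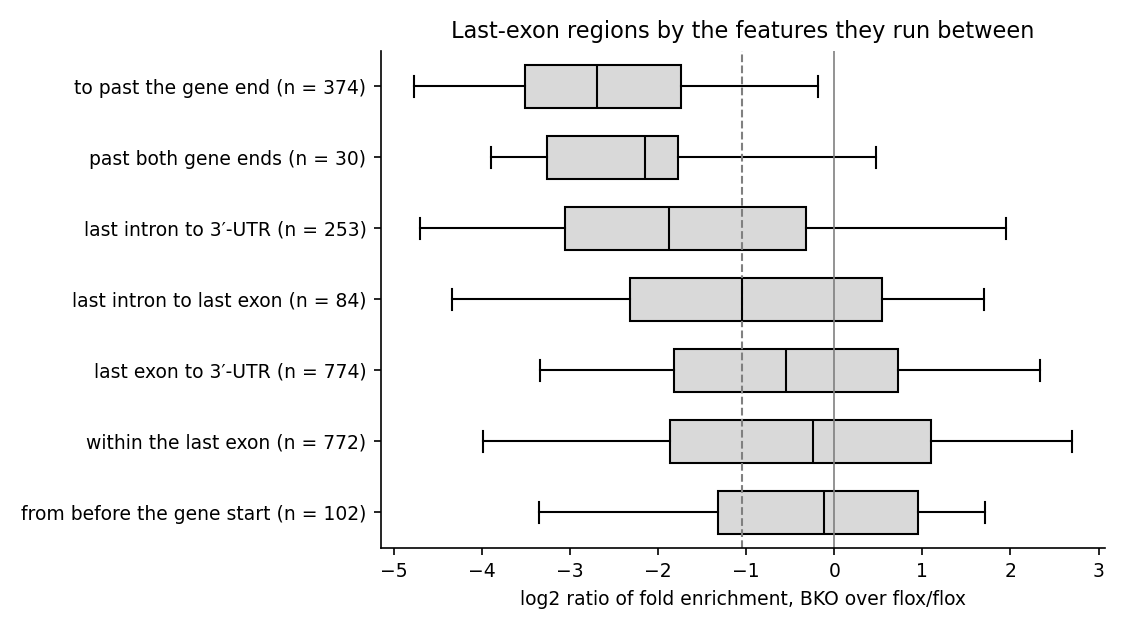
Log2 ratio of fold enrichment, BKO over flox/flox, of last-exon regions by the features in which their first and last bases lie. Boxes span the quartiles with the median as a line, whiskers the 5th to 95th percentile, the dashed line is the median of all regions (-1.05) and the solid line is 0; medians run from -2.70 past the gene end to -0.24 within the last exon.

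The order also held inside single genes. Of 72 genes with several last-exon regions and a known strand, the region nearest the gene end had a lower ratio than the one farthest from it in 59 (81.9%). The regions lay a median of 891.75 bases apart, and the median difference in log2 ratio, far minus near, was 1.65 (1.27 to 1.79). Far regions had median fold enrichments of 3.98 in BKO and 2.96 in flox/flox iBAT, and near regions 3.53 against 8.29. In 22 genes with at least 20 input reads throughout, the difference was 1.74, in the same direction in 19.

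*Cd248*, which encodes the stromal and pericyte protein endosialin, had 3 last-exon regions on chromosome 19. The upstream region (5068128 to 5068541) had 335 IP and 52 input reads in BKO iBAT and 12 IP and 12 input reads in flox/flox iBAT. In the middle region (5068730 to 5069534) there were 937 and 148 reads against 52 and 52. Their fold enrichments were 6.20 and 6.16 in BKO iBAT, against 1.06 in each case in flox/flox iBAT, with log2 ratios of 2.55 (counting interval 0.87 to 4.22) and 2.54 (1.68 to 3.39). The third region (5069862 to 5070703) ran past the gene end and had 2633 IP and 197 input reads in BKO iBAT against 2166 and 60 in flox/flox iBAT, which is a fold enrichment of 13.0 against 37.7 and a log2 ratio of -1.54 (-2.13 to -0.94).

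The zinc finger gene *Zfp948* had the same order on chromosome 17, with log2 ratios of 1.88 (0.51 to 3.25) and 1.51 (-0.31 to 3.33) within the exon and -1.97 (-3.22 to -0.73) at the stretch that reaches the 3′-UTR. The middle region had 13 input reads in BKO and 10 in flox/flox iBAT, and its interval is not clear of 0. In *Zfp386*, another zinc finger gene, the ratios were -0.48 (-1.83 to 0.87), -1.62 (-2.74 to -0.51) and -2.20 (-3.04 to -1.35) towards the 3′-UTR. Further genes with this order, chosen after their values were seen, were *Srsf4* (1.48 far and -3.33 near), which encodes a splicing factor, and *Mrgbp* (1.33 and -2.62), which encodes a subunit of a histone acetyltransferase complex. In 13 of the 72 genes the near region had the higher ratio. Among the well-counted ones, *Map1lc3b*, which encodes an autophagosome protein, had -2.29 (-2.60 to -1.97) far from the end and -0.89 (-1.12 to -0.67) near it, *Hexim1* had -2.10 and -1.24, and *4930523C07Rik* had -1.75 and -1.53. The largest such differences, in genes with fewer input reads, were in *Hspa1l* (-4.69 far and 0.76 near), *Bmp2k* (-3.17 and 1.72) and *Hyls1* (-2.90 and 0.46). Both *Hspa1l* regions and both of these *Hyls1* regions also carry another gene's label. *Fabp4*, the fatty acid binding protein of adipocytes, was lower in all of its 3 regions, with -3.34, -2.43 and -1.92 from high to low coordinates. The labels place the first of these from before the gene start into the last exon. In this gene the ratio was thus lowest at the gene start, against the order above. Over all 89 genes with several last-exon regions, 31 were lower in every region, 17 higher in every region and 41 mixed, and the spread within a gene had a median of 1.76 log2 units.

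In 224 genes the table held both a last-exon region and a 3′-UTR region, and the one with the most reads of each place was compared. The last-exon region had the higher ratio in 193 genes (86.2%), with medians of 0.57 in last exons and -1.94 in 3′-UTRs and a median difference of 2.12 (1.80 to 2.49). These genes were taken for having a region of each label and do not stand for all last exons. Over all 2422 last-exon regions the median ratio was -1.05. In 112 genes the last-exon region was higher in BKO iBAT while the 3′-UTR region was lower, and in 10 genes it was the reverse. Both were lower in 77 genes and both higher in 25. With at least 20 input reads in all 4 counts, the last-exon ratio was the higher one in 89 of 95 genes. In these genes the median fold enrichment of the last exon was 3.40 in BKO and 2.19 in flox/flox iBAT, and that of the 3′-UTR 2.33 against 7.25.

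*Adora2a*, which encodes an adenosine receptor that raises cyclic AMP, is an example. Its last-exon region (chromosome 10, 75333026 to 75334069) had 1135 IP and 72 input reads in BKO iBAT and 264 IP and 158 input reads in flox/flox iBAT. The fold enrichment there was 15.2 against 1.77, a log2 ratio of 3.10 (2.48 to 3.73). Downstream, in its 3′-UTR (75334297 to 75334738), it was 3.05 in BKO and 10.5 in flox/flox iBAT, a ratio of -1.78. *Adrb1*, which encodes the β1-adrenergic receptor, had a ratio of 1.38 (0.63 to 2.13) in the last exon and -3.01 (-3.89 to -2.13) in the 3′-UTR. Chosen after their values were seen, *Rnf144b*, a ubiquitin ligase, had 2.80 and -2.75, the circadian deadenylase gene *Noct* 1.62 and -3.77, and the pseudokinase gene *Trib1* 1.16 and -3.70. *Ccdc127* was the clearest exception, with -1.43 in the last exon and 2.27 in the 3′-UTR.

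**Figure D3:**
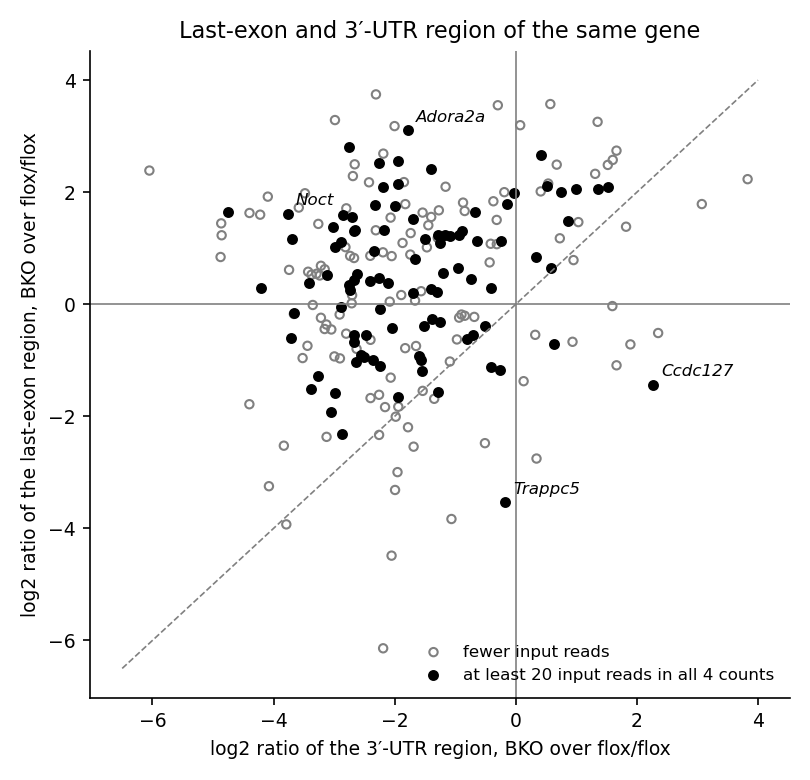
Log2 ratio (BKO over flox/flox) of the last-exon region (vertical) against that of the 3′-UTR region (horizontal) in 224 genes, with filled points for the 95 genes with at least 20 input reads in all 4 counts. Most points lie above the dashed line of equal ratios, 193 of 224, and 112 genes have a positive last-exon and a negative 3′-UTR ratio.

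The largest decreases among called last-exon regions with at least 20 input reads in each genotype were led by *Lias*, which encodes the mitochondrial lipoic acid synthase. On chromosome 5 (65408764 to 65409276) it had 478 IP and 226 input reads in BKO iBAT and 2262 IP and 20 input reads in flox/flox iBAT. The fold enrichment was 2.06 (1.65 to 2.58) against 114 (62.3 to 210.2), a log2 ratio of -5.79 (-6.73 to -4.86). This was also the highest fold enrichment of the well-counted last-exon regions in flox/flox iBAT, and the flox/flox input behind it was at the minimum of 20 reads.

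*Gadd45gip1*, a component of the mitochondrial ribosome, followed with 642 IP and 482 input reads in BKO iBAT and 4642 and 92 in flox/flox iBAT, a ratio of -5.35. *Pet100*, an assembly factor of cytochrome c oxidase, had -5.26 and *Mul1*, a ubiquitin ligase of the outer mitochondrial membrane, -5.11. *Gatb*, a subunit of the mitochondrial glutamyl-tRNA amidotransferase, had -5.01 and *Tars2*, the mitochondrial threonyl-tRNA synthetase, -5.00. *Smim26* (-4.75), the small GTPase gene *Rab24* (-4.74), the phosphatase inhibitor gene *Arpp19* (-4.74) and the mitochondrial ribosomal gene *Mrpl55* (-4.71) completed the 10. In all of these the fold enrichment was between 1.16 and 2.06 in BKO iBAT and between 32.7 and 114 in flox/flox iBAT, and both libraries moved, with a lower IP and a higher input in BKO iBAT. The ranking used these same counts, so it favours regions with few flox/flox input reads. These ran from 20, in *Tars2* and *Arpp19* as in *Lias*, to 92 in *Gadd45gip1*.

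**Figure D4:**
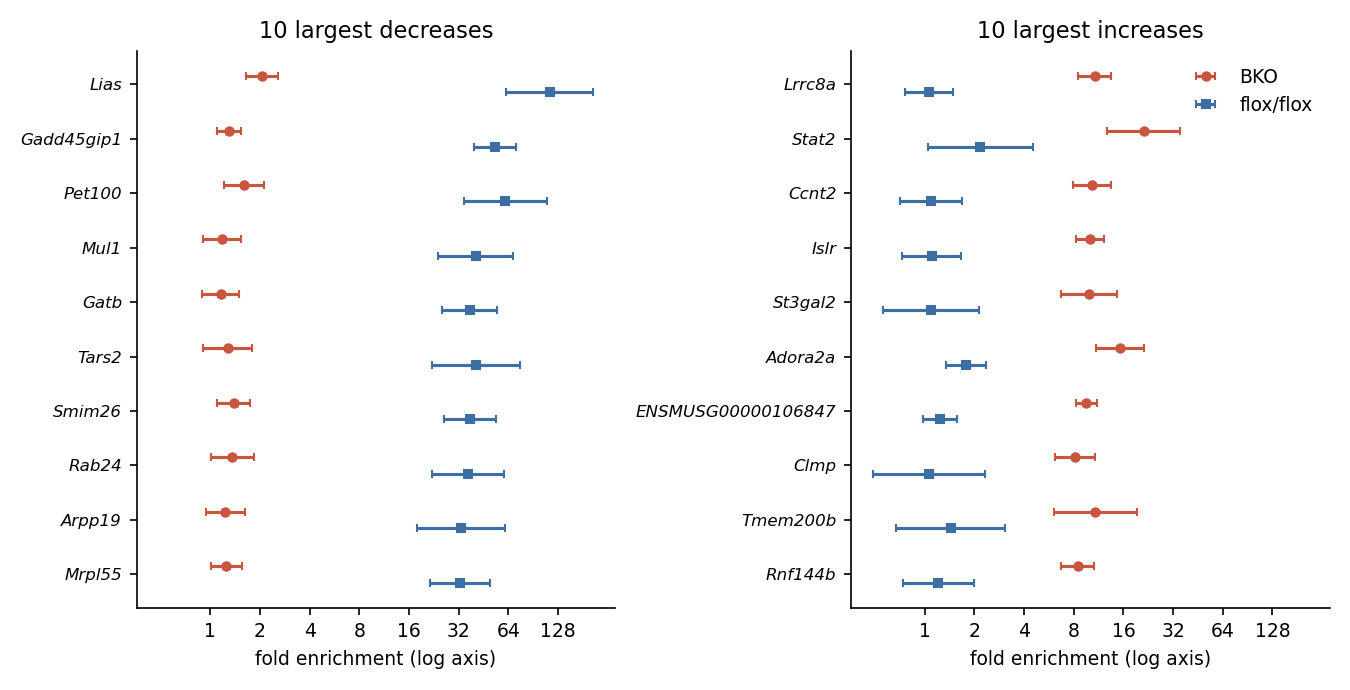
Fold enrichment (log axis) in BKO and flox/flox iBAT of the 10 last-exon regions with the largest decrease and the 10 with the largest increase among called regions with at least 20 input reads in each genotype. Bars are 95% counting intervals; on the left BKO values lie between 1.16 and 2.06, and on the right flox/flox values lie between 1.06 and 2.18.

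The largest increases had a fold enrichment between 1.06 and 2.18 in flox/flox iBAT. The ranking used this same ratio, so it favours regions with a low flox/flox enrichment. *Lrrc8a*, the essential subunit of the volume-regulated anion channel, had 1730 IP and 157 input reads in BKO iBAT against 136 and 136 in flox/flox iBAT, a fold enrichment of 10.7 against 1.06. Its log2 ratio was 3.34 (2.75 to 3.92). *Stat2*, a transcription factor of the interferon response, had 21.2 against 2.18, and *Ccnt2*, cyclin T2 of a transcription elongation factor, 10.3 against 1.09. *Islr* had 10.01 against 1.10, the sialyltransferase gene *St3gal2* 9.91 against 1.09 and the adhesion molecule gene *Clmp* 8.16 against 1.06. The gene with the ID ENSMUSG00000106847, *Tmem200b*, *Adora2a* and *Rnf144b* were the others, with ratios between 2.80 and 3.10. Apart from *Adora2a* and ENSMUSG00000106847, these regions were called as peaks in BKO iBAT only.

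The highest fold enrichments in BKO iBAT among well-counted last-exon regions were 27.4 in *Tnfsf10*, the death ligand TRAIL, 21.2 in *Stat2* and 16.2 in *Tcf15*, a basic helix-loop-helix factor. *Mmrn2*, an endothelial matrix protein, had 15.8 and *Gimap8*, a GTPase gene of immune cells, 15.7. In flox/flox iBAT *Tnfsf10* had 5.38 and *Mmrn2* 7.27, while *Tcf15* had 72.9 and was among the 5 highest there too, with *Lias*, *Mfsd5* (87.4), ENSMUSG00000109237 (84.3) and the interferon regulatory factor gene *Irf3* (74.8). The *Tcf15* region had 1206 IP and 72 input reads in BKO iBAT against 2674 and 38 in flox/flox iBAT, so a high enrichment remained in BKO iBAT beside a ratio of -2.17 (-2.98 to -1.37).

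The last-exon region of *Ucp1*, whose product uncouples respiration in brown adipocytes, ran past the gene end (chromosome 8, 83297793 to 83298478). Its IP level was 216 RPM in BKO and 1353 RPM in flox/flox iBAT, while its input level was 216 against 229 RPM. The fold enrichment was thus 1.003 in BKO and 5.92 in flox/flox iBAT, a log2 ratio of -2.56 (-2.70 to -2.42). The Cre cassette of BKO mice lies at this end of the *Ucp1* gene, and its part in the counts was not tested. *Pparg*, the nuclear receptor that drives fat cell differentiation, had 1084 IP and 926 input reads in BKO iBAT and 2524 and 468 in flox/flox iBAT, a ratio of -2.32 (-2.59 to -2.05). *Prdm16*, a coregulator of brown fat identity, had 2 last-exon regions. The better counted one had 59 IP and 44 input reads in BKO iBAT against 252 and 32, a ratio of -2.64 (-3.72 to -1.56).

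Among the adipocyte and lipid genes, 4 of 34 had a last-exon region, and all 6 of their regions had a ratio below 0, 5 of them at least 2-fold, with a median of -2.28. *Fabp4* gave 3 of these 6 regions, so the counts and medians of this list lean on 1 gene. Over all regions of the table, 66.6% had a ratio below 0 and 50.8% were at least 2-fold lower, with a median of -1.05. *Adipoq*, which encodes adiponectin, had 23548 IP and 17280 input reads in BKO iBAT and 36579 and 6688 in flox/flox iBAT, a fold enrichment of 1.33 against 5.81. *Abhd5*, the coactivator of adipose triglyceride lipase, had 1.02 against 17.2 and a ratio of -4.07. *Nnat*, the exception, had -0.49 (-1.28 to 0.30). The input of this list was higher in BKO iBAT at 22 of its 28 regions of any place, with sums of 5138 and 2497 RPM. Their median log2 input ratio was 1.16, beside 0.80 over last-exon regions, which is about that of all regions. At the median of the 6 last-exon regions, a lower IP (log2 ratio -0.49) and a higher input (1.84) entered the ratios of fold enrichment.

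Regulators of brown fat were mixed, with 11 regions of 10 genes and a median of -0.15. Of these regions, 6 were below 0, 4 at least 2-fold lower, 2 of them in *Prdm16*, and 2 at least 2-fold higher. The share below 0 was smaller than that of all regions given above, as was the share at least 2-fold lower (50.8% of all regions). The share at least 2-fold higher is near the 18.6% of all regions, and 1 of the 2, *Nrip1*, had no reads in either flox/flox library and an interval of -3.24 to 8.21. Within the C/EBP family, which acts early in fat cell differentiation, *Cebpa* had 714 RPM IP and 238 RPM input in BKO iBAT against 590 and 318 RPM in flox/flox iBAT, a ratio of 0.69 (0.57 to 0.82). *Cebpb* had -0.15 and *Cebpd* -1.97 (-2.92 to -1.02). *Ppara*, the receptor that governs fatty acid oxidation, had -0.79 (-1.20 to -0.38) and *Nr4a1*, an immediate early nuclear receptor, 0.67. *Creb1*, the factor that answers cyclic AMP, had 2.45 (1.16 to 3.74) and was called in BKO iBAT only. Thermogenic genes had 4 regions, 3 at least 2-fold lower (50.8% of all regions) and 1 at least 2-fold higher (18.6%). The lower ones were *Ucp1*, *Ucp3* (-1.68) and *Ucp2* (-1.02), and the higher one was *Adrb1* (1.38, 0.63 to 2.13). Genes of insulin and β-adrenergic signalling also had 4 regions, 1 at least 2-fold lower and 3 at least 2-fold higher. The lower one was *Pde4d* (-1.61). The higher ones were *Adrb1*, *Creb1* and *Pde4b* (3.14), which like *Pde4d* encodes a cyclic AMP phosphodiesterase.

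**Figure D5:**
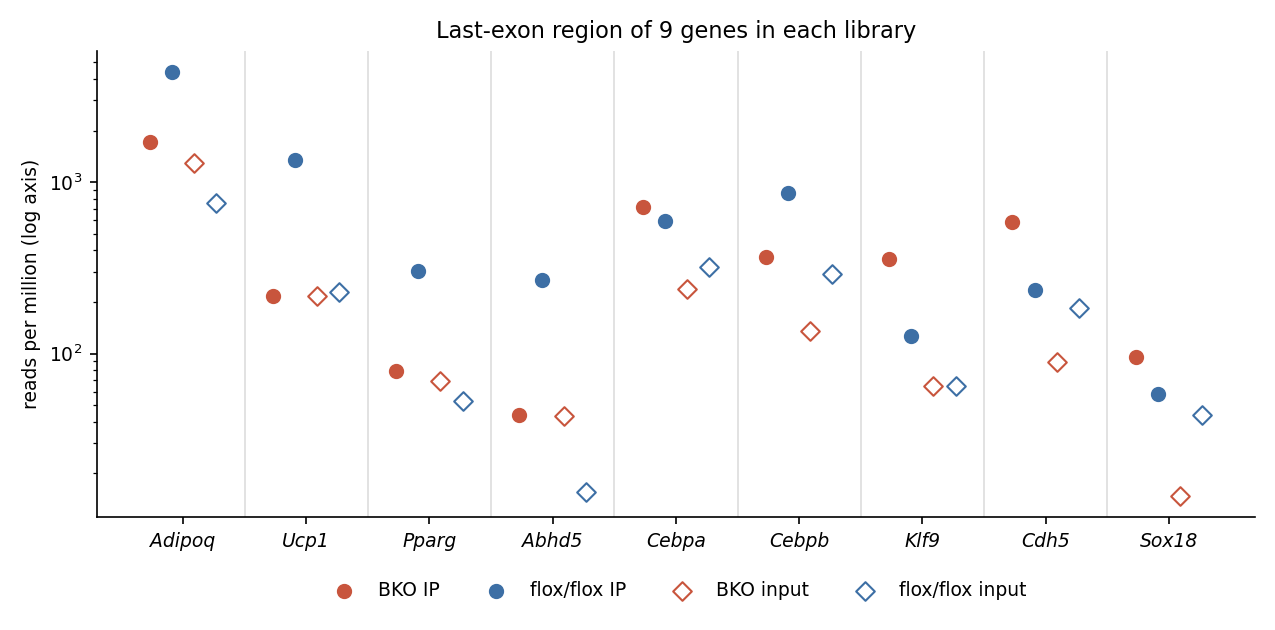
RPM (log axis) of the last-exon region of 9 genes in the BKO IP, flox/flox IP, BKO input and flox/flox input library. In *Ucp1* both BKO libraries stand at 216 RPM, beside 1353 RPM in the flox/flox IP, whereas in *Klf9*, *Cdh5* and *Sox18* the BKO IP is the highest of the 4.

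A list drawn up as genes of few exons, mostly 1 or 2, had the opposite balance. Exon numbers were not checked against an annotation, and not every member, *Myc* among them, has so few. Of the 14 regions of this list, 3 had a ratio below 0, 1 of them at least 2-fold, and 6 were at least 2-fold higher. The median was 0.81, and the shares over all regions were 66.6%, 50.8% and 18.6%. *Klf9*, a Krüppel-like factor induced by glucocorticoid, had 4887 IP and 860 input reads in BKO iBAT and 1051 and 570 in flox/flox iBAT, a fold enrichment of 5.56 against 1.96. The endothelial factor gene *Sox18* had 2.31 (1.90 to 2.71), *Junb* 1.23 (0.68 to 1.78) and *Egr2* 3.20 (0.61 to 5.79), the last with 13 input reads in BKO and 4 in flox/flox iBAT. *Myc* had -0.76 (-1.46 to -0.06).

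Subunits of oxidative phosphorylation had 4 last-exon regions, all with a ratio below 0 and 3 at least 2-fold lower (66.6% and 50.8% over all regions), with a median of -2.03. *Ndufb3* and *Ndufs7* of complex I had -2.96 and -2.55, *Cox5b* of cytochrome c oxidase -1.51, and *Atp5j* of ATP synthase -0.22 (-0.65 to 0.21). All 6 regions of genes whose symbol begins with Nduf were at least 2-fold lower, from -1.04 in *Ndufv3* to -4.66 in *Ndufaf7*. All 12 regions of mitochondrial ribosomal proteins (Mrpl and Mrps) were too, with a median of -3.29, beside 50.8% and -1.05 over all regions. *Mrpl12* had 3107 IP and 1487 input reads in BKO iBAT and 16612 and 510 in flox/flox iBAT. Of 9 regions of cytoplasmic ribosomal proteins 8 were at least 2-fold lower (50.8% over all regions), with a median of -3.41, but reads of these genes can be shared with pseudogene copies.

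Zinc finger genes named Zfp, which typically encode their fingers in 1 long last exon, formed the largest symbol family with 98 regions. They divided evenly, with 49 below 0 and 49 above, 34 at least 2-fold lower (34.7%, against 50.8% of all regions) and 29 at least 2-fold higher (29.6%, against 18.6%), and a median of -0.01. Their fold enrichments were 4.72 in BKO and 5.31 in flox/flox iBAT. These regions were thinly counted, with a median of 34 input reads in BKO and 10.5 in flox/flox iBAT. The mitochondrially encoded *mt-Nd5* and *mt-Nd2*, which had the most reads, had fold enrichments of 1.67 against 1.38 and 1.45 against 1.30. Their input levels were 2484 and 2601 RPM in BKO iBAT, against 8773 and 7213 RPM in flox/flox iBAT.

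Markers of other cell types lay on both sides. *Cdh5*, the cadherin of endothelial junctions, had 8051 IP and 1198 input reads in BKO iBAT against 1946 and 1618 in flox/flox iBAT, a ratio of 2.36 (2.18 to 2.55), while *Eng*, an endothelial coreceptor of TGF-β, had -1.11 (-1.40 to -0.83). *Pdgfra* of stromal cells had 2.51 (1.36 to 3.65) and was called in BKO iBAT only. *Col1a2* had -1.03 and *Pdgfrb* -1.02. The immune markers *Cd14* and *Cd163* had 2.15 (1.45 to 2.86) and 1.66 (0.09 to 3.24). *Csf1r*, the receptor of macrophage growth, had -0.24 (-0.68 to 0.20).

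The input of several marker lists differed between the genotypes over their regions of any place. It summed to 743 RPM in BKO and 16.4 RPM in flox/flox iBAT over 12 of 17 skeletal muscle genes, with *Myh4* at 214 against 4.87 RPM and no region for *Acta1*. It was 671 against 219 RPM over 7 of 12 fibroblast and matrix markers, 216 against 123 RPM over 7 of 15 immune markers and 230 against 370 RPM over 8 of 11 endothelial markers. Input was also higher in BKO iBAT across the table, with a median log2 ratio of 0.80 over last-exon regions. Subtracting the median of all regions left -0.00088 there. The list medians were 5.52 for muscle, 1.72 for fibroblast and matrix, 1.44 for immune and -0.31 for endothelial regions. No region was listed for *Cd68*. The only muscle genes with a last-exon region were *Casq2*, with 2.38 (0.77 to 3.996), and *Myh1*, with 0.18 (-1.63 to 2.002), which had 8 input reads in flox/flox iBAT. The part of cell composition in the ratios of last-exon regions was not tested.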

How the data were processed

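m6ARIP-seq of mouse iBAT was analysed from the deposited table of regions. The authors trimmed reads, mapped them to GRCm38 with BWA (0.7.12-r1039) and called peaks with MACS2 (2.1.0). The submitters' processing notes also name FastQC and HOMER. The authors give whole read counts per region, counts with 1 added scaled to RPM, and fold enrichments, a linear ratio of IP over input RPM. The authors' marks of called peaks and their own log2 ratios are also deposited, and the ratios were recomputed here. The RPM imply 13687380 reads for the BKO IP, 13394053 for the BKO input, 8309098 for the flox/flox IP and 8826904 for the flox/flox input.

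Counting intervals (95%) were taken on the log scale from counts plus 1 with 2 reads per fragment, since 76.2 to 89.5% of counts from 1 to 20 were even. Medians have binomial order-statistic intervals, which reflect the spread among regions of these libraries. The counting intervals cover counting error only. No interval holds replicate error. In simulated counts 96.3% of the intervals of last-exon regions held the true ratio. The simulation took over the intervals' own assumption of 2 reads per fragment. This share is thus no check of how far the real counts vary. A call is a fold of at least 2. Gene ends came from RefSeq (GRCm38.p6).

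Members, gene lists and families were chosen with earlier results of these data known. Named genes are those the paper names, list members with the most input reads, the 10 largest decreases and increases, the 5 highest enrichments per genotype, the 5 regions with the most reads and the 5 genes with 3 regions each, tied for the most. No test was run, since each group is 1 library. The alternatives tried were other folds, filters on input, centring, an added 1, and other rules for the regions. Python 3.11.15, pandas 2.3.3, NumPy 2.4.6 and SciPy 1.17.1 were used.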

Additional observations from a re-analysis of the deposited data

How the results depend on the processing

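Subtracting the median of all regions left a median log2 ratio of 0.0029 in fold enrichment, -0.015 in IP and -0.00088 in input over last-exon regions. It turned the sign of 12 named regions, 7 with an interval clear of 0, *Cebpb* (0.90), *Col1a1* (0.76), *Myc* (0.29), *Ppara* (0.26), *Ucp2* (0.029), *Pdgfrb* (0.025) and *Col1a2* (0.020), and 5 without, in *Atp5j*, *Csf1r*, *Nnat*, *Zc3h13* and *Zfp386*. It gave 786 regions at least 2-fold lower and 827 higher. A 4-fold threshold gave 801 lower and 176 higher. At least 20 input reads in each genotype left 748 lower and 205 higher of 1423 regions, with medians of 0.51 in input and -0.56 in IP, and last-exon shares of 32.6% of BKO and 31.9% of flox/flox called peaks. Regions called in both genotypes gave 642 lower, 73 higher and a median of -1.30. These filters keep fewer regions. With 1 added to the fold enrichments the median was -0.81 and the difference within genes, last exon minus 3′-UTR, 1.69. Counting every region with any last-exon label raised the share of flox/flox called peaks to 28.8%. At 1.5-fold, with intervals clear of 0, with 1 gene per region, with every label last exon, or without mitochondrial regions (an alternative added after seeing the data, like those within genes), the counts stayed within 1.5 times. No replicate could be left out. No paired analysis was possible because each genotype had 1 library of each kind. Low input limits the regions far from gene ends most.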
